A study of Mus musculus with 4 samples.

Results

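Transcripts of 9 genes that govern pericellular proteolysis were followed through the cell types of the E10.5 mouse heart, and compared there between control and *Tie2-cko* libraries. They are the 4 tissue inhibitors of metalloproteinases (*Timp1*, *Timp2*, *Timp3* and *Timp4*), the matrix metalloproteinases *Mmp2*, *Mmp11*, *Mmp14* and *Mmp15*, and the membrane-anchored inhibitor *Reck*. The genes were taken by symbol, each matched a single identifier, and together they are 9 of the 32285 genes in the count matrices. Whole cardiogenic regions were dissociated and profiled cell by cell on the 10x Genomics droplet platform, in which a unique molecular identifier (UMI) marks each captured transcript. The 4 libraries are named here by the numbers in their labels. Control libraries 5 and 7 are labelled Tie2flfl, so the floxed alleles of *Tie2* are present there without Cre. *Tie2-cko* libraries 6 and 8 are labelled Nfatcre-Tie2flfl and carry a Cre driven from *Nfatc1*, which is active in endocardial cells (EdCs), in addition to the same alleles. The methods give 2 hearts of each genotype from a single litter, so the spread between libraries is that between littermates and not between litters.

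Metalloproteinases cut collagens, proteoglycans and cell surface proteins outside the cell. MMP14 and MMP15 sit in the plasma membrane, where MMP14 also activates the secreted gelatinase MMP2, and TIMP2 can serve as a bridge in that activation. MMP11 (stromelysin 3) leaves the cell already activated by furin-type convertases. TIMPs bind the catalytic site of these enzymes. TIMP3 stays bound to the extracellular matrix and, unlike its relatives, blocks several ADAM and ADAMTS proteases, among them those that cleave versican in the cardiac jelly between endocardium and myocardium. RECK restrains MMP2 and MMP14 at the cell surface, and in endothelial cells it takes part with ADGRA2 in WNT7 reception.

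After removal of poor barcodes and likely doublets, 33419 cells remained, between 5684 and 10097 in a library, with 14898 to 25740 UMIs in the median cell. Library 6 was the deepest and had the fewest cells. Clusters were named from marker genes, and 9 cell types had at least 20 cells in every library. Chamber EdCs (1552 cells; *Npr3*, *Gpr182*, *Emcn*) and cushion EdCs (1335 cells; *Nfatc1*, *Wnt4*) were each a single cluster, as were vascular endothelial cells (ECs; 227 cells; *Cldn5*) and epicardial cells (1633 cells). Cardiomyocytes (CMs; 12664 cells) and mesenchymal cells (MCs; 3348 cells) were made of 6 and 3 clusters. Some other listed markers did not set the EdC types apart. *Gata2* of the chamber list (0.222 UMIs per 10000 in chamber EdCs) was higher in cushion EdCs of libraries 5, 6 and 8, and lower in library 7 (0.186). Of the cushion list, *Postn* was at 0.184 in cushion and 0.196 in chamber EdCs. *Msx1* and *Twist1* were highest in MCs, and *Wnt9b* and *Tbx20* in cushion EdCs. The targeted gene behaved as labelled: the *Tie2* (*Tek*) level in chamber EdCs was 0.888 and 1.00 UMIs per 10000 in controls 5 and 7, and 0.127 and 0.149 in *Tie2-cko* 6 and 8. *Xist* was found in library 5 (0.928 UMIs per 10000 in chamber EdCs) and not in the other 3 libraries (0 in each), so the sexes were not balanced, and *Timp1* is X-linked. CMs, MCs, EdCs and epicardial cells together made up 47.4% and 37.9% of the cells of libraries 5 and 6 and 75.8% and 78.2% of those of libraries 7 and 8. Between 29 and 62 barcodes were shared by any pair of libraries, at most 0.521% of the smaller one.

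The 3 inhibitor genes with more than scattered UMIs differ in their promoters, and these are shown because *Timp1*, *Timp2* and *Timp3* divide the inhibitor transcripts between the cell types in different proportions. *Timp1* lies on chrX:20870166-20874735 (plus strand), *Timp2* on chr11:118301069-118355740 (minus strand) and *Timp3* on chr10:86300372-86349506 (plus strand) of GRCm38. *Timp1*, *Timp3* and *Timp4* are each enclosed by a synapsin gene on the opposite strand (*Syn1*, *Syn3* and *Syn2*), and whether reads were counted by strand is not given in the sources used here, so reads of the partners cannot be told apart. The synapsins were close to absent, with at most 0.023 UMIs per 10000 in any named cell type. Promoter sequences were taken from RefSeq (GRCm38.p6), where 8 of the 9 genes had an entry, and run from 250 bases before to 50 bases after the start. Capitals mark GC boxes (GGGCGG, or CCGCCC where the box is on the other strand) and the forkhead core TTGTTTA, searched on both strands with TATAAA and TGANTCA. The windows are chrX:20869916-20870215, chr11:118355362-118355661 (minus strand) and chr10:86300162-86300461.
Timp1: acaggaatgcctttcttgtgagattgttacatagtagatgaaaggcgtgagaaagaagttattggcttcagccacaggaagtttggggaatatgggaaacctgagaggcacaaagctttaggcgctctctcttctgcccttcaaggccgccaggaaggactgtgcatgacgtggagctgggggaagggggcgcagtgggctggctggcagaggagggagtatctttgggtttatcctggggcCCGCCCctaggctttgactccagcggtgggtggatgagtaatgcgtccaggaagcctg
Timp2: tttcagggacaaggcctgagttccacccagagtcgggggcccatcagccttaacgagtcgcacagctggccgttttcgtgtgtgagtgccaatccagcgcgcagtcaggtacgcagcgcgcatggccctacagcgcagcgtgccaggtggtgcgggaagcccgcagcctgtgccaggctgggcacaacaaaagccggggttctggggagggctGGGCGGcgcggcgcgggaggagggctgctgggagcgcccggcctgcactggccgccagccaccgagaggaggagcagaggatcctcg
Timp3: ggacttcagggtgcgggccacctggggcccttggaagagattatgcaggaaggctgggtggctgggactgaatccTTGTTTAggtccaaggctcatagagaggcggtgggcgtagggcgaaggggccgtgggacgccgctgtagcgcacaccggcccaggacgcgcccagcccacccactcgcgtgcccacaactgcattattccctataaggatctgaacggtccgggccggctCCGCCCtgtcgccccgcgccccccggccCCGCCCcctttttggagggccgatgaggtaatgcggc
GC makes up 55.0% of the *Timp1* window, 68.7% of that of *Timp2* and 67.0% of that of *Timp3*. The *Timp1* window holds 8 CpG dinucleotides, that of *Timp2* 25 and that of *Timp3* 24. A GC box was found in each, and in 35.7% of all 32851 promoters of the same length. Among the 8 windows, the forkhead core was found in that of *Timp3* alone, at bases 76 to 82 of the window. This core is held by 4.23% of all promoters, and the longer insulin response element TTGTTTAC, which contains it, by 1.23% of all promoters and by none of the 8. None of the 8 holds TATAAA (13.6% of all promoters) or TGANTCA (7.81%). Such a match describes the letters of these windows, and the introns were not analysed here.

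*Timp1*, whose product is secreted and inhibits most soluble MMPs, was highest in MCs (0.848 ± 0.057 UMIs per 10000; SD, n = 4 libraries) and cushion EdCs (0.752 ± 0.019). Levels are means over the cells of a type, taken per library and then averaged. Epicardial cells (0.448 ± 0.033), chamber EdCs (0.428 ± 0.044) and vascular ECs (0.395 ± 0.038) formed a middle group, and neighbours in this order overlapped between libraries. CMs had 0.148 ± 0.012 and epithelial cells 0.053 ± 0.015. In red blood cells, which served as the background of free RNA, the level was 0.011 ± 0.007.

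*Timp2* was led by MCs and cushion EdCs as well, with 1.26 ± 0.06 in MCs and 0.853 ± 0.057 in cushion EdCs. The libraries of MCs did not overlap with those of cushion EdCs, nor those of cushion EdCs with those of chamber EdCs (0.528 ± 0.075). Chamber EdCs, epithelial cells (0.517 ± 0.096) and epicardial cells (0.506 ± 0.059) could not be ordered. CMs followed with 0.394 ± 0.032, and overlapped with epicardial cells. Vascular ECs stood apart from the other endothelial types: their *Timp2* level was 0.139 ± 0.072, and no vascular library (0.073 to 0.234) reached any library of chamber or cushion EdCs.

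*Timp3* had another order. Vascular ECs were at the top with 0.894 ± 0.261, but their libraries were wide apart (1.06, 0.756, 0.60 and 1.16 in libraries 5, 6, 7 and 8) and overlapped with those of MCs (0.765 ± 0.057). These vascular values rest on few cells. Library 7 held 29 vascular ECs with 23 *Timp3* UMIs, and in library 5 the highest cell held 49 of 204 UMIs. Epicardial cells had 0.628 ± 0.049 and cushion EdCs 0.475 ± 0.077. Chamber EdCs, at 0.254 ± 0.090, overlapped with both cushion EdCs and CMs (0.229 ± 0.043). The endocardium of the chambers therefore had the lowest mean level of *Timp3* among the endothelial types. In control libraries 5 and 7 (0.186 and 0.212) it lay below the corresponding CM libraries (0.207 and 0.277). In *Tie2-cko* libraries 6 and 8 (0.232 and 0.386) it lay above the corresponding CM libraries (0.180 and 0.25). Single CM clusters lay on both sides of chamber EdCs in the controls. The cluster led by *Myl2*, *Pln* and *Smpx* had 0.087 and 0.149 in libraries 5 and 7. That led by *Shox2*, *Vsnl1* and *Bmp2* had 0.498 and 0.512.

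*Timp4* was nearly absent. CMs held 45 UMIs in 39 of 12664 cells, MCs 10 UMIs in 5 of 3348 cells, epithelial cells 5 UMIs in 5 cells, chamber EdCs 3 UMIs in 3 cells and epicardial cells 1 UMI. No UMI was found in cushion EdCs (0 of 1335 cells, which allows a UMI in up to 0.225% of cells) or vascular ECs (0 of 227 cells, up to 1.32%). These limits cover counting error only and bear on cells with a UMI, not on cells that express the gene, and *Timp4* is left out of the comparisons below unless named.

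**Figure D1:**
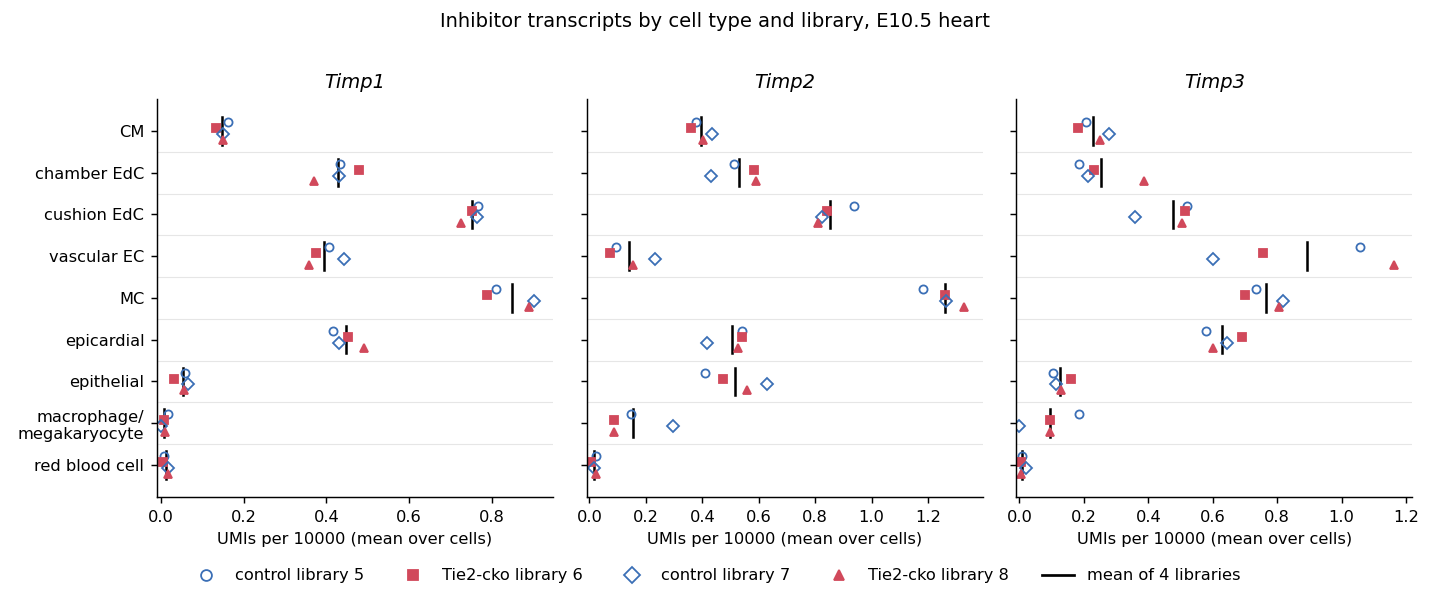
Levels of Timp1, Timp2 and Timp3 (x axes, UMIs per 10000, mean over the cells of a library) in 9 cell types (y axis). Open blue symbols are control libraries 5 and 7, filled red symbols Tie2-cko libraries 6 and 8, and black bars the mean of the 4 libraries. Timp1 and Timp2 were highest in MCs (0.848 and 1.26), and Timp3 was widest in vascular ECs (0.60 to 1.16).

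The gelatinase gene *Mmp2* divided the cell types most sharply. Its level was 0.833 ± 0.103 in cushion EdCs, 0.784 ± 0.062 in MCs, 0.580 ± 0.082 in chamber EdCs and 0.388 ± 0.110 in vascular ECs. Epicardial cells had only 0.032 ± 0.014 and CMs 0.014 ± 0.002, the latter close to the 0.007 ± 0.001 of red blood cells. Over the 7 cell types that are not blood, the highest mean was 58.5 times the lowest, against 16.1 times for *Timp1*, 9.07 times for *Timp2* and 7.06 times for *Timp3*. Epithelial cells lay between, at 0.083 ± 0.032, and 2 clusters left unnamed, led by *Prrx1*, *Col9a1* and *Crabp1* and by *Ptn*, *Col1a1* and *Col1a2*, held 0.303 and 0.302.

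*Mmp14*, the membrane-type activator of MMP2, was led by cushion EdCs (1.2 ± 0.25) and chamber EdCs (0.845 ± 0.224), with MCs (0.718 ± 0.167) and vascular ECs (0.717 ± 0.145) next. These 4 types overlapped from one neighbour to the next. Unlike *Mmp2*, *Mmp14* was also present in epicardial cells (0.469 ± 0.077) and epithelial cells (0.447 ± 0.108), and it reached 0.124 ± 0.024 in CMs. The spread had a pattern: library 6, the deepest, had the highest *Mmp14* level in 7 of 7 cell types that are not blood. For *Mmp11* library 6 was highest in 6 of 7 types, for *Mmp15* in 4, for *Timp1* in 1 and for *Timp2* in 1. Epithelial cells were a different mix in each library. The cluster led by *Pax9*, *Sox2* and *Crabp2* held 31 of 317 epithelial cells in library 6 and 243 of 253 in library 7. Within it *Mmp14* was at 0.350 in library 6, and at 0.381, 0.349 and 0.346 in libraries 5, 7 and 8. The part of depth and of the mix of clusters in these differences was not tested.

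*Mmp15*, which encodes another membrane-type enzyme, was the most even of the 4 proteases. The means ran from 0.078 ± 0.014 in epicardial cells to 0.296 ± 0.073 in vascular ECs, a ratio of 3.79. CMs, at 0.227 ± 0.029, were as high as cushion EdCs (0.232 ± 0.056) within the spread. *Mmp11* had its highest level outside the endocardium and myocardium, in epithelial cells (0.390 ± 0.050), where no library came down to any library of MCs (0.110 ± 0.026). Chamber EdCs had 0.032 ± 0.017 of it. *Reck* was low everywhere: cushion EdCs (0.104 ± 0.012), MCs (0.098 ± 0.008), epicardial cells (0.096 ± 0.014), vascular ECs (0.092 ± 0.040) and chamber EdCs (0.080 ± 0.018) could not be ordered, and CMs had 0.014 ± 0.001.

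**Figure D2:**
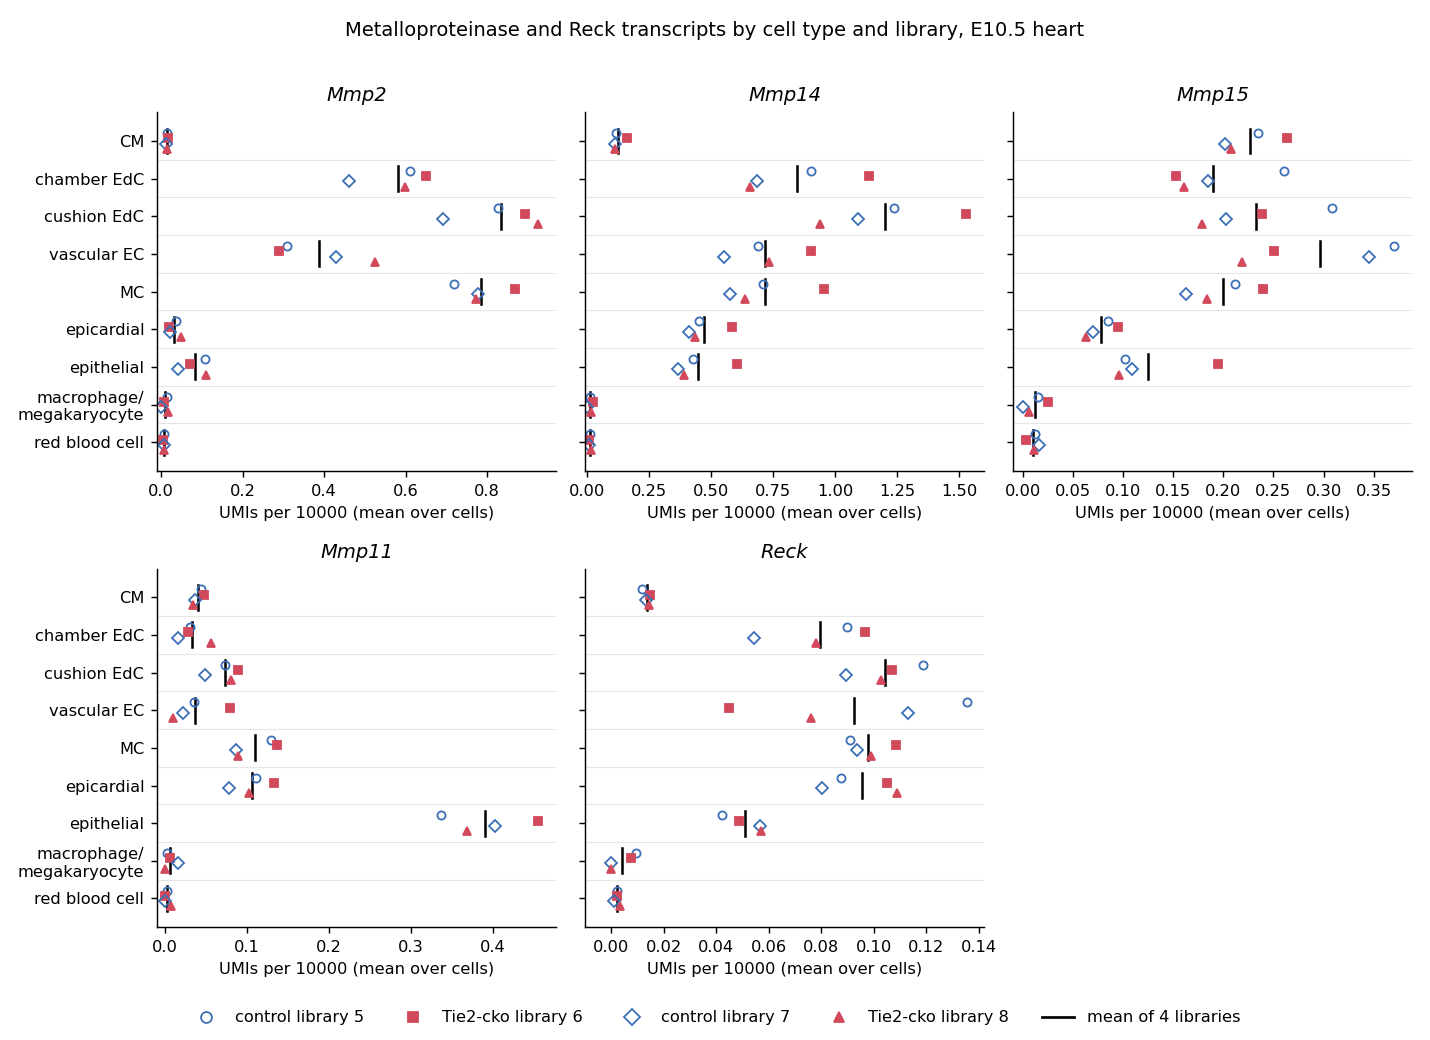
Levels of Mmp2, Mmp14, Mmp15, Mmp11 and Reck (x axes, UMIs per 10000, mean over the cells of a library, each panel with its own range) in 9 cell types, with symbols as in the plot of the inhibitors. Mmp2 was near 0 in CMs and epicardial cells, Mmp11 was highest in epithelial cells, and the filled squares of library 6 lead every solid cell type for Mmp14.

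Because a UMI is counted from 1 end of a transcript and was not corrected for how well each gene is captured, the make-up of the family is compared here between cell types and not read as amounts of protein. *Timp2* made up 51.1% ± 1.6 (SD, n = 4) of the summed *Timp* level in CMs, 43.8% ± 1.4 in MCs and 43.5% ± 2.4 in chamber EdCs, but 9.9% ± 5.8 in vascular ECs. There *Timp3* made up 61.8% ± 10.2, and in epicardial cells 39.7% ± 2.9. In chamber EdCs the *Timp3* part was 16.4% and 19.7% in controls 5 and 7, and 18.0% and 28.7% in *Tie2-cko* 6 and 8, so that library 8 stood above the rest and library 6 did not. On the protease side *Mmp15* made up 56.2% ± 1.5 of the summed level of the 4 *Mmp* genes in CMs, *Mmp14* 68.5% ± 2.4 in epicardial cells, and *Mmp2* and *Mmp14* together most of it in EdCs (35.5% ± 3.5 and 50.8% ± 5.4 in chamber EdCs). The ratio of summed *Timp* to summed *Mmp* level was 2.34 ± 0.24 in epicardial cells, 1.95 ± 0.44 in CMs and 1.62 ± 0.28 in MCs. It was 0.899 ± 0.091 in cushion EdCs and 0.750 ± 0.132 in chamber EdCs, below 1 in each of their libraries. Epithelial cells were also below 1 in each library (0.688 ± 0.173), and vascular ECs lay on both sides of 1 (0.994 ± 0.158). No library of chamber or cushion EdCs overlapped with a library of CMs, MCs or epicardial cells. This holds for a sum of these 4 *Mmp* genes only. The sum leaves out *Mmp23*, which was high in epicardial cells and MCs and low in chamber EdCs, and the ratio with *Mmp23* was not computed.

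**Figure D3:**
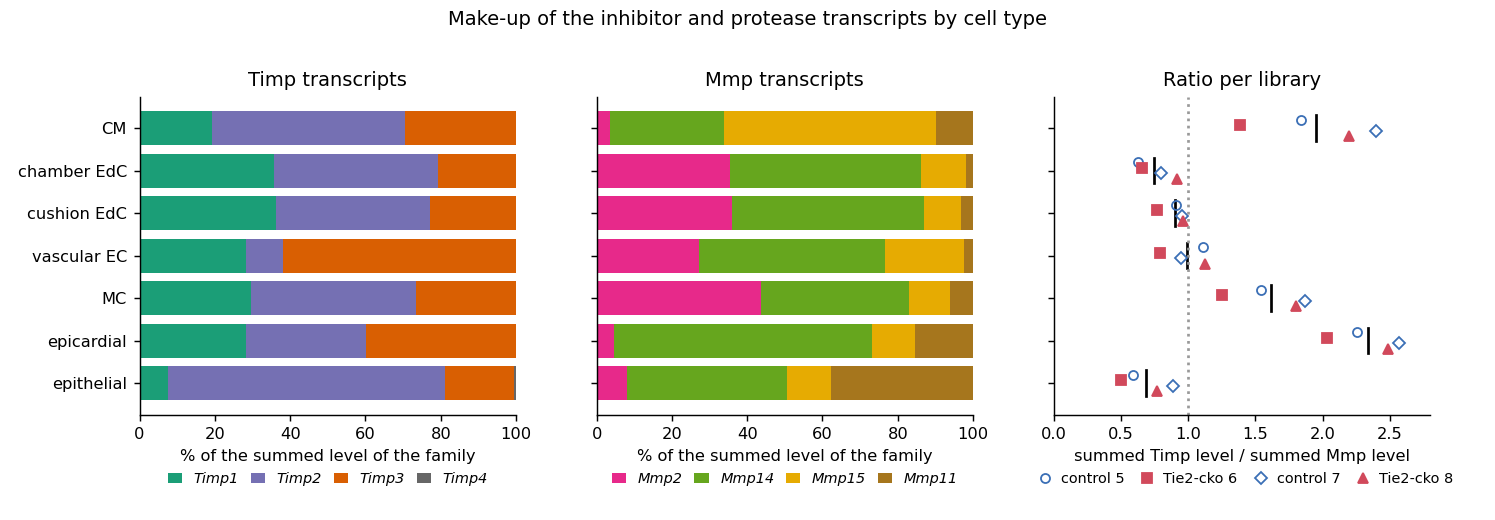
Left and middle, mean percentage (x axes, 4 libraries) of the summed Timp level and of the summed level of Mmp2, Mmp14, Mmp15 and Mmp11 in 7 cell types. Right, ratio of the 2 sums in each library (symbols, with black bars for the mean and a dotted line at 1), which was below 1 in every library of chamber EdCs, cushion EdCs and epithelial cells, between 0.791 and 1.13 in vascular ECs, and above 1 in every library of CMs, MCs and epicardial cells.

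Within CMs and MCs the inhibitors varied between clusters. Among the 6 CM clusters *Timp3* was highest in the one led by *Shox2*, *Vsnl1* and *Bmp2* (0.498, 0.490, 0.512 and 0.575 in libraries 5, 6, 7 and 8), of which *Shox2* is known from the sinus venosus and its pacemaker cells. Over all cells of a cluster, *Timp3* was lowest (0.114) in the one led by *Myl2*, *Pln* and *Smpx*, genes of ventricular muscle (0.087, 0.097, 0.149 and 0.112). In library 6 the cluster led by *Nppa*, *Nppb* and *Bmp10* was lower still (0.089). The highest value of the *Myl2*, *Pln* and *Smpx* cluster was below the lowest of the *Shox2* cluster in both genotypes. Among the 3 MC clusters the one led by *Stmn4*, *Postn* and *Inhba* had the highest *Timp2* (1.76 UMIs per 10000, against 1.22 and 0.970), *Timp3* (0.947) and *Mmp14* (0.952) and the lowest *Timp1* (0.624). Among epithelial clusters, that led by *Prlr*, *Foxe1* and *Slc16a11* had an *Mmp14* level of 1.22, against 0.358 to 0.421 in the other 3. Clusters were made from these same cells, so these are descriptions without a test.

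Across the 9 cell types the members fell into patterns that other genes share. The likeness was Pearson's r of log2 (level + 0.05) over the 9 types, among 4246 or 4247 genes that reached 0.5 UMIs per 10000 in some type. The points share libraries, and no p is given. *Mmp14* was most like *Col18a1* and *Pxdn* (r = 0.985 and 0.983), *Mmp2* most like *Ramp2*, *Igf1* and *Grasp* (0.967, 0.957 and 0.953), and *Timp3* most like *Asb4*, *Nes* and *Kitl* (0.963, 0.946 and 0.946). *Timp1* was followed most closely by *Fkbp10* (0.982), *Timp2* by *Lrpap1* (0.962), *Mmp11* by *Igdcc3* (0.961), *Mmp15* by *Amotl1* (0.942) and *Reck* by *Lima1* (0.970). Among the members themselves the closest pair was *Mmp14* and *Reck* (r = 0.961), and *Timp1* and *Timp3* (0.890) were closer than *Timp2* and *Timp3* (0.637). The least alike were *Mmp2* and *Mmp11* (0.202).

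The comparison of genotypes asked whether loss of *Tie2* in the endocardium changed these transcripts in EdCs or in the cells around them. UMIs were summed over the cells of a type in each library and tested with edgeR. In chamber EdCs 8 members could be tested, none passed an adjusted p of 0.05, and over all genes 0.00871% were called (1 of 11487, which was *Tek* itself, log2 fold change -2.56, SE 0.20, adjusted p = 0.00995). At an unadjusted p under 0.05 stood 1 member, *Timp3*, beside 7.10% of all genes (816). DESeq2 called 21 genes there and no member. The median log2 fold change of the 8 members was 0.24, against 0.00 over all genes tested. In sums such as these, fewer cells with a transcript and less of it per cell cannot be told apart.

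*Timp3* showed the largest difference of the 8 that were tested in chamber EdCs. Its level was 0.186 and 0.212 UMIs per 10000 in controls 5 and 7, and 0.232 and 0.386 in *Tie2-cko* 6 and 8. Both *Tie2-cko* libraries lay above both controls, but library 6 exceeded library 7 by little, and library 8 stood well above the other 3. The log2 fold change was 0.70 (SE 0.22, unadjusted p = 0.0128, adjusted p = 0.550 by edgeR). Without library 8 it was 0.38 (adjusted p = 0.757), and without library 6 it was 0.96 (adjusted p = 0.0932). Without control library 7 the value was 0.90 and passed (adjusted p = 0.0417), while without control library 5 it was 0.53 (adjusted p = 0.529). With libraries 5 and 6 against 7 and 8 as a block, a pairing that the labels do not give, it was 0.70 with an adjusted p of 4.83e-06, in a fit that called 889 genes. With no filter on low counts it was 0.69 and also passed (adjusted p = 0.0313). The direction was upward in all 15 fits, and 3 of them passed.

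A further cluster of 1539 cells, led by *AY036118*, *Tm4sf1* and *Gngt2*, was left unnamed. Its cells held few UMIs, and it also missed the marker rule, with 2 EdC markers present (a 0.333 share of that list). *Timp3* there was at 0.107 and 0.121 in the controls and 0.116 and 0.116 in *Tie2-cko*, and with its cells counted as chamber EdCs the log2 fold change was 0.68 (adjusted p = 0.588 by edgeR).

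The counts behind these values are small. Chamber EdCs held 131 *Timp3* UMIs in library 5, 160 in library 6, 219 in library 7 and 271 in library 8. Per 10000 summed UMIs, with exact Poisson 95% intervals that cover counting error only, this is 0.180 (0.151 to 0.214) and 0.235 (0.205 to 0.269) in the controls, and 0.286 (0.243 to 0.334) and 0.410 (0.363 to 0.462) in *Tie2-cko*. The intervals of libraries 6 and 7 overlap, and that of library 8 is apart from the others. The share of cells with at least 2 *Timp3* UMIs was 8.29% and 7.45% in libraries 5 and 7, and 25.9% and 14.4% in libraries 6 and 8, whose cells differ in depth. When every cell was thinned to 5500 UMIs (21, 11, 41 and 30 shallower cells of libraries 5, 6, 7 and 8 left out), a *Timp3* UMI was found in 11.6%, 9.68%, 11.1% and 14.2% of chamber EdCs. The genotypes then overlapped, with library 6 lowest and library 8 highest (exact permutation test over the 4 libraries, two-sided p = 1, where 0.333 is the smallest that 2 against 2 libraries can give). Without thinning the shares were 22.5%, 38.5%, 23.5% and 29.2%. In red blood cells thinned alike, a *Timp3* UMI was found in 0.354%, 0%, 1.31% and 0% of cells.

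**Figure D4:**
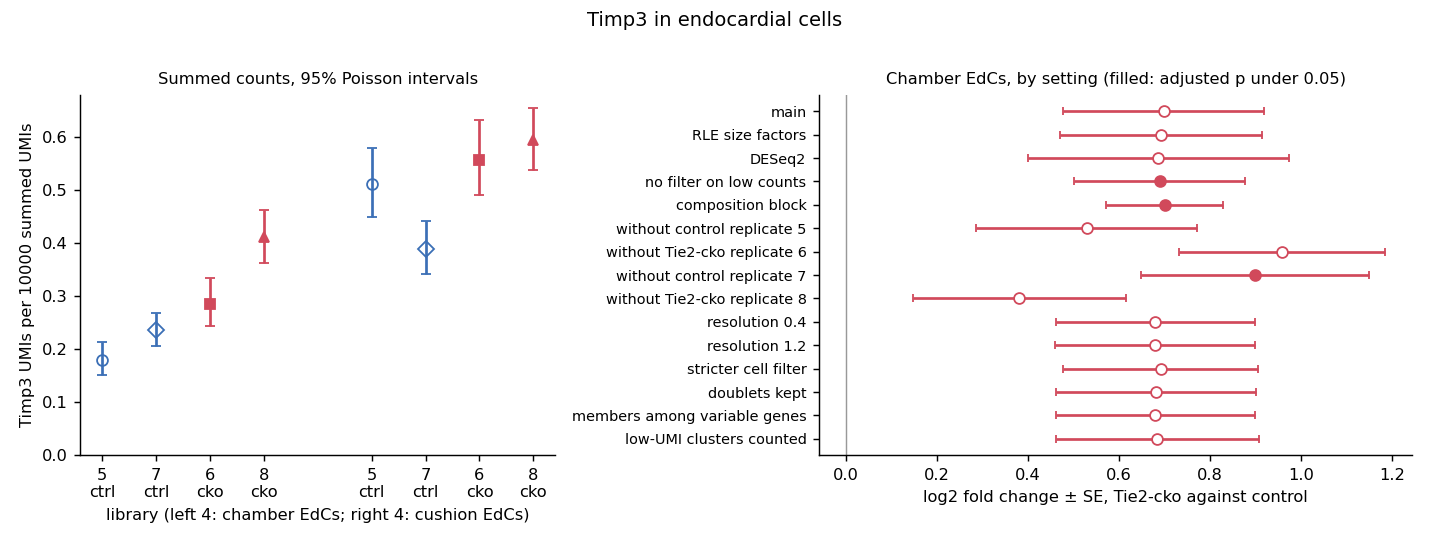
Left, Timp3 UMIs per 10000 summed UMIs (y axis) in chamber and cushion EdCs of each library, with exact 95% Poisson intervals. Right, log2 fold change of Timp3 in chamber EdCs (x axis, bars are SE) under each processing setting, filled where the adjusted p is under 0.05. Every value is above 0, from 0.38 without library 8 to 0.96 without library 6, and 3 of the 15 are filled.

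Markers of other cell types were read in the same chamber EdCs. *Cldn5*, which marks the vascular ECs where *Timp3* is high, was at 0.121 and 0.106 in controls 5 and 7, and 0.047 and 0.075 in *Tie2-cko* 6 and 8, against 3.85 in vascular ECs. Of the 6 genes of the vascular EC list it was the 1 lower in both *Tie2-cko* libraries, and 2 were higher in both. These were *Clec14a* (0.403 and 0.387 against 0.597 and 0.695) and *Pecam1* (1.92 and 1.72 against 2.035 and 2.01). The 6 genes summed to 8.89 and 7.84 in the controls and 8.575 and 8.84 in *Tie2-cko*, which overlap. The 8 genes of the MC list summed to 0.998 and 1.07 in the controls and 1.32 and 1.49 in *Tie2-cko*. Of the 8, *Fbln2*, *Twist1*, *Sox9* and *Pdgfra* were higher in both *Tie2-cko* libraries and *Postn*, which encodes a matrix protein, was lower in both. A shorter set of 4 MC genes (*Col1a1*, *Pdgfra*, *Prrx1* and *Postn*) did not separate the genotypes, with sums of 0.337 and 0.322 in the controls and 0.314 and 0.346 in *Tie2-cko*. The 5 red blood cell markers were lower in both *Tie2-cko* libraries, at 75.9 and 33.9 in the controls and 12.7 and 12.0 in *Tie2-cko*. The part of these in the *Timp3* values was not tested.

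The genotype difference of *Timp3* in chamber EdCs was set against that in other cells of the same libraries. CMs had a *Timp3* level of 0.207 and 0.277 in the controls and 0.180 and 0.25 in *Tie2-cko*, and MCs 0.734 and 0.819 against 0.701 and 0.805. Epicardial cells had 0.580 and 0.645 in the controls and 0.689 and 0.599 in *Tie2-cko*. The genotypes overlapped in each of these types. In edgeR with terms for the libraries, the change in chamber EdCs exceeded that in MCs by 0.73 on the log2 scale (SE 0.14, adjusted p = 0.00354, where 1.38% of all genes passed) and that in CMs by 0.85 (SE 0.14, adjusted p = 0.0136, 0.426% of genes passed). Against epicardial cells the difference was 0.72 (SE 0.15, adjusted p = 0.0513, 0.278% passed). No other member passed in any of these comparisons. In limma-voom with the library as a random block neither difference passed (adjusted p = 0.332 against MCs and 0.896 against CMs), and leaving out library 5 or 8 (adjusted p = 0.0893 and 0.0571 against MCs) or library 7 (0.153 against CMs) also lifted them over the threshold.

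Cushion EdCs, the endocardium over the valve primordia, had *Timp3* at 0.520 and 0.360 in controls 5 and 7, and 0.515 and 0.506 in *Tie2-cko* 6 and 8. The genotypes overlapped in these means over cells, with library 7 the low one, but not in the summed UMIs (0.511 and 0.389 against 0.557 and 0.593). The log2 fold change was 0.32 (SE 0.17, adjusted p = 1.00 by edgeR), where 0% of 11420 genes passed. The change in chamber EdCs was larger by 0.36 (SE 0.20, adjusted p = 0.567, with 1.01% of genes passing), so the 2 endocardial types were not shown to differ. This last value was 0.01 without library 5 and 0.78 without library 7.

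The other inhibitors moved less in chamber EdCs. *Timp2* was at 0.513 and 0.429 UMIs per 10000 in controls 5 and 7, and 0.582 and 0.589 in *Tie2-cko* 6 and 8. All *Tie2-cko* values lay above the controls, the nearest being libraries 5 and 6, and the log2 fold change was 0.24 (SE 0.15, adjusted p = 0.814). A *Timp2* UMI was found in 23.5% and 21.6% of thinned control cells and in 30.6% and 25.1% of thinned *Tie2-cko* cells (two-sided exact permutation p = 0.333, which no result could undercut). *Timp1* was at 0.432 and 0.431 in the controls, with *Tie2-cko* above and below them, at 0.478 and 0.370 (log2 fold change -0.17, SE 0.14, adjusted p = 0.844). The summed *Timp* level was 1.14 and 1.07 in the controls and 1.29 and 1.35 in *Tie2-cko*.

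Among the proteases of chamber EdCs, *Mmp15* had the single negative fold change. Its level was 0.261 and 0.185 in controls 5 and 7, and 0.152 and 0.161 in *Tie2-cko* 6 and 8 (log2 fold change -0.29, SE 0.19, adjusted p = 0.817). These means over cells did not overlap, but the summed UMIs behind the fold change did, with 0.252 and 0.194 in the controls and 0.195 and 0.182 in *Tie2-cko*. In vascular ECs the means were 0.370 and 0.345 against 0.251 and 0.219, and the sums again overlapped (0.340 and 0.381 against 0.354 and 0.226). In cushion EdCs the means overlapped as well (0.308 and 0.203 against 0.239 and 0.179). *Mmp14* ranged more between libraries than between genotypes, at 0.902 and 0.684 in the controls and 1.14 and 0.656 in *Tie2-cko*. Its log2 fold change was 0.00 (SE 0.21), and libraries 5 and 6 were higher than libraries 7 and 8. *Mmp2* followed a like order, with 0.610 and 0.461 in the controls and 0.651 and 0.599 in *Tie2-cko* (log2 fold change 0.23, SE 0.16, adjusted p = 0.826). *Mmp11* rested on 68 UMIs in all and *Reck* on 228, with log2 fold changes of 0.54 (SE 0.39) and 0.24 (SE 0.23) and adjusted p-values of 0.835 and 0.872. With 1 library left out, these values ran from 0.27 to 0.82 for *Mmp11*, 0.10 to 0.39 for *Reck*, 0.09 to 0.40 for *Timp2*, 0.07 to 0.40 for *Mmp2* and -0.48 to -0.09 for *Mmp15*.

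Counted on the summed UMIs, which weight deep cells more than the levels above, *Timp2*, *Timp3*, *Mmp2*, *Mmp11* and *Reck* (5 of the 8 members tested in chamber EdCs) exceeded both controls in each *Tie2-cko* library and *Timp1* fell short of them in each, where 37.8% of all genes tested did not overlap between the genotypes. In cushion EdCs 3 of 8 were higher and 2 lower (27.7% of all genes), in MCs 2 of 8 higher (25.1%), in CMs 1 of 9 higher and 1 lower (17.1%) and in epicardial cells 1 of 8 higher (24.0%). In epithelial cells 1 of 8 was higher (24.4%), in vascular ECs 1 of 6 (26.6%), and in the macrophage and megakaryocyte cluster, where 3 members could be tested, 1 was higher and 1 lower (27.9%). In red blood cells 1 of 6 was lower (20.8%). No member passed the threshold in any of the 9 cell types, and outside chamber EdCs none had an unadjusted p under 0.05, which was reached by 2.12% of genes in cushion EdCs, 0.365% in CMs, 0.986% in MCs, 1.03% in epicardial cells, 0.698% in epithelial cells, 1.02% in vascular ECs, 0.622% in macrophages and megakaryocytes and 0.363% in red blood cells. All genes called were 0 of 15629 in CMs and 0 of 12677 in MCs (57 and 125 genes at an unadjusted p under 0.05, and 2 and 8 genes called by DESeq2), and 5 of 11911 (0.0420%) in epicardial cells, which were lower in *Tie2-cko* and included 3 globin genes.

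**Figure D5:**
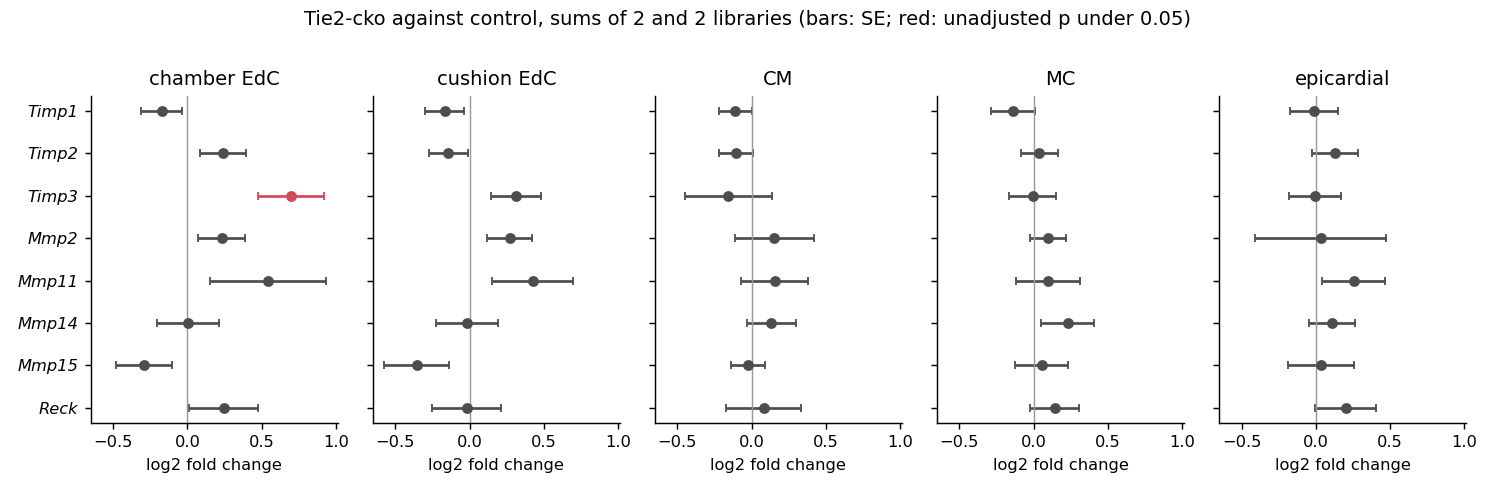
Log2 fold change of 8 members (y axis) between Tie2-cko and control in 5 cell types (x axes, sums of 2 and 2 libraries, bars are SE by edgeR). Timp3 in chamber EdCs (0.70) is the single point with an unadjusted p under 0.05, shown in red.

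The enzymes that the inhibitors act on, and those that process the proteases, were read from lists of related genes. The list of other MMPs had 19 genes, of which *Mmp1a* matched no row and few were detected. *Mmp23* was high in epicardial cells (0.876 UMIs per 10000) and MCs (0.619) and low in chamber EdCs (0.058), and *Mmp16* was at 0.052 in chamber EdCs. Among 8 ADAM sheddases, the membrane proteases that release cell surface proteins, *Adam10* was highest in cushion EdCs (1.14) and had 0.774 in chamber EdCs, and *Adam19* was at 0.629 and 0.439. Of 6 versican-cleaving ADAMTS genes, *Adamts1* led in chamber EdCs (0.543), *Adamts9* had 0.103 there, and *Adamts5* was highest in cushion EdCs (0.174). *Furin*, a convertase that activates membrane-type MMPs, was highest in MCs (0.544) and had 0.296 in chamber EdCs, and *Pcsk5* reached 1.03 in epicardial cells. *Bsg*, a membrane protein that induces MMPs, and *Cd63*, a receptor of TIMP1, were the most abundant of the partners (4.75 and 4.73 in chamber EdCs).

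None of these listed genes passed the threshold in any cell type, where in chamber EdCs 0.00871% of all genes did. In chamber EdCs 2 other MMPs could be tested, with 6 ADAM, 3 ADAMTS, 3 convertase and 5 partner genes, whose median log2 fold changes were 0.36, -0.08, -0.02, 0.14 and -0.05, against 0.00 over all genes. Of these genes 3 had an unadjusted p under 0.05 by edgeR, beside 7.10% of all genes tested in chamber EdCs. On the summed UMIs 37.8% of all genes there did not overlap between the genotypes. *Adamts1*, one of the versican-cleaving proteases, was at 0.439 and 0.401 in controls 5 and 7, and 0.689 and 0.642 in *Tie2-cko* 6 and 8, without overlap (log2 fold change 0.54, SE 0.15, adjusted p = 0.470). *Adam19* was at 0.50 and 0.494 in the controls and 0.347 and 0.415 in *Tie2-cko* (-0.46, SE 0.14, adjusted p = 0.526). *Mmp23* was at 0.032 and 0.048 against 0.078 and 0.073 (0.84, SE 0.28, adjusted p = 0.605). In cushion EdCs *Adamts1* was at 0.367 and 0.302 in the controls and 0.377 and 0.376 in *Tie2-cko*, with library 5 close to both *Tie2-cko* libraries (log2 fold change 0.14, SE 0.14, unadjusted p = 0.365 by edgeR). In epicardial cells, where *Adamts1* was low (0.086 and 0.076 in the controls, 0.089 and 0.099 in *Tie2-cko*), the log2 fold change was 0.45 (SE 0.18, unadjusted p = 0.0377 and adjusted p = 1.00 by edgeR).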

How the data were processed

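Deposited UMI counts per gene and barcode were used for all 4 libraries. Per the file headers the authors made them with Cell Ranger 6.1.2 on mm10, while the methods name another version. Barcodes with at least 500 genes and 1000 UMIs and at most 10% mitochondrial UMIs were kept. Because Scrublet (scanpy 1.11.5) set its own threshold at between 0 and 277 doublets, the highest scores were removed instead, taking 0.8% for every 1000 barcodes. Clusters came from Seurat 5.3.0 (2000 variable genes without the genes described here, 30 components, resolution 0.8). A cluster was named when at least 3 markers and more than a 0.5 share of a list were present, and was left unnamed where its median UMI number was under 0.333 of its libraries' median. Clusters that best matched the second heart field list, and clusters that matched MCs but were low in *Postn*, were also left unnamed. EdCs were separated from vascular ECs by *Nrg1*. For each type the UMIs of a library were added up, and genotypes compared with edgeR 4.0.16 (quasi-likelihood test, TMM, filterByExpr, Benjamini-Hochberg adjustment over all genes tested). DESeq2 1.42.0 and limma 3.58.1 were alternatives, as were other filters, resolutions and libraries left out. The comparison between cell types without each library was added after seeing the data. Statistical scripts were tested on simulated data. Named genes are the members, listed genes past the threshold or among the 2 highest of their list, and genes among the 3 most like each member. Some items are not reported here. Listed genes at an unadjusted p under 0.05 were chosen after their values were seen. Members and lists were chosen with earlier results of these data known. P-values measure the spread between libraries of 1 litter. Intervals cover counting error only.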

Additional observations from a re-analysis of the deposited data

Results flagged for a closer look

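The genotype difference of *Timp3* in chamber EdCs, on the log2 scale, was larger than that in CMs by 0.85 (adjusted p = 0.0136 by edgeR with terms for the libraries) and larger than that in MCs by 0.73 (adjusted p = 0.00354). Both were singled out because the difference between cell types itself passed the test. In limma-voom with the library as a random block the same differences were 0.83 and 0.71 and did not pass (adjusted p = 0.896 and 0.332).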

How the results depend on the processing

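Of 360 member levels recomputed under another setting 351 moved by less than 1 SD, and of 149 fold changes 135 kept their direction and side of the threshold. The 360 include means with 1 library left out. Such a mean could not move by 1 SD, because the SD is that of the same 4 libraries, so the count says nothing about them. Few UMIs and 2 libraries per genotype limit the comparisons of *Timp4*, *Mmp11* and *Reck*. The causes of the changes below were not tested. No paired analysis was possible because the labels give the libraries no shared replicate numbers. The composition block is no pairing by labels: it sets libraries 5 and 6 against 7 and 8 by their share of heart cells, a grouping made from the data. At resolution 0.4 no vascular EC type was found.

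The *Timp3* log2 fold change in chamber EdCs passed with no filter on low counts (0.69) and with the composition block (0.70), and ran from 0.38 to 0.96 with 1 library left out. Members called there numbered 1 in each of these fits, and 0 to 1 with 1 library left out. For *Mmp14* in chamber EdCs the sign turned under DESeq2 (-0.00596), no filter (-0.00043), the composition block (-0.00589) and the stricter cell filter (-0.00625), and ran from -0.28 to 0.26 with 1 library left out. *Timp3* turned in sign in MCs (0.00971) and epicardial cells (0.0047) with doublets kept, and with 1 library left out ran from -0.16 to 0.16 in MCs, -0.52 to 0.21 in CMs and -0.18 to 0.20 in epicardial cells.

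Genes called in chamber EdCs numbered 21 under DESeq2, 165 with no filter, 889 with the composition block, 0 under the stricter cell filter and 40 to 136 with 1 library left out. In cushion EdCs they numbered 8, 32, 94, 5 and 9 to 38 in the same order, and 1 with doublets kept. In CMs they numbered 2 under DESeq2, 131 with the block and 0 to 7 with 1 library left out. In MCs the counts were 8 under DESeq2, 26 with no filter, 111 with the block and 0 to 35 with 1 library left out. In epicardial cells they were 10 with no filter, 58 with the block, 1 with doublets kept and 7 to 70 with 1 library left out.

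In limma-voom the excess of the *Timp3* change in chamber EdCs was 0.83 over CMs and 0.71 over MCs, neither of which passed. With 1 library left out it ran from 0.70 to 0.97 over CMs, 0.56 to 0.83 over MCs, 0.57 to 0.81 over epicardial cells and 0.01 to 0.78 over cushion EdCs. Without thinning, the *Tie2-cko* minus control share of chamber EdCs with a UMI turned to 5.38 percentage points for *Timp1* and 2.8 for *Mmp15*, from -1.91 and -1.65. Levels moved for *Mmp2* in chamber EdCs with the stricter filter (0.497), *Timp1* in cushion EdCs at resolution 1.2 (0.777) and *Timp3* in MCs from summed UMIs (0.835). In CMs they moved for *Mmp2* with doublets kept (0.0257) and from summed UMIs (0.0117), for *Mmp11* from summed UMIs (0.0314), and for *Reck* with doublets kept (0.0155), at resolution 1.2 (0.0107) and from summed UMIs (0.0109).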
